A study of Mus musculus with 112 samples.

Results

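The Wnt receptor machinery is represented here by 8 of the 32285 genes counted, followed through the stem cells, progenitors and Paneth cells of aged and young mouse intestine. They were taken by symbol from the count table. They are the R-spondin receptors Lgr5 and Lgr4, the ubiquitin ligases Rnf43 and Znrf3, the Wnt receptors Fzd5 and Fzd7, and the co-receptors Lrp5 and Lrp6. All mice were C57BL/6 animals carrying the Lgr5-eGFP-IRES-CreERT2 knock-in, in which the Lgr5 locus drives GFP. The labels do not state whether 1 or both copies carried it. As background, this knock-in is known to disrupt the Lgr5 copy that carries it and to be expressed in patches of the epithelium, so that not every stem cell is GFP positive. Aged mice were 23 to 27 months old and young mice 2 to 3 months old, both sexes in each. Crypt cells of the proximal part of the small intestine were sorted into 3 gates. Paneth cells were high for CD24, side scatter and Epcam and negative for GFP, progenitors were GFP medium to low, and intestinal stem cells (ISCs) were GFP high, both of the last gates being Epcam high and CD24 low. There were 12 aged and 12 young Paneth samples, 10 aged and 10 young progenitor samples, and 12 aged and 11 young ISC samples.

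A Wnt ligand joins a Frizzled receptor to Lrp5 or Lrp6 at the cell surface, and the pair stabilises beta-catenin, which switches on target genes with TCF factors. Rnf43 and Znrf3 mark Frizzled receptors for removal and so lower the response, and R-spondins bound to Lgr4 or Lgr5 take these ligases away from the membrane and raise it. In the crypt this signal keeps stem cells dividing, Paneth cells supply ligand to their stem cell neighbours, and Lgr5, Rnf43, Znrf3 and Axin2 are themselves targets of the pathway.

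In GRCm38 with the GENCODE M21 annotation, Lgr5 (ENSMUSG00000020140) lies on chromosome 10 from 115450311 to 115587780 on the minus strand, and Lgr4 (ENSMUSG00000050199) on chromosome 2 from 109917647 to 110014257 on the plus strand. Rnf43 (ENSMUSG00000034177) lies on chromosome 11 from 87662722 to 87735539 (plus), and Znrf3 (ENSMUSG00000041961) on the same chromosome from 5276324 to 5444847 (minus). Both Frizzled genes are on chromosome 1, Fzd7 (ENSMUSG00000041075) from 59482424 to 59486955 (plus) and Fzd5 (ENSMUSG00000045005) from 64730558 to 64737751 (minus). Lrp5 (ENSMUSG00000024913) spans 3584828 to 3686564 of chromosome 19 (minus) and Lrp6 (ENSMUSG00000030201) spans 134446476 to 134566965 of chromosome 6 (minus). All 8 are protein coding. Lgr5 overlaps A930009A15Rik on the other strand, which had 1416 counts over all libraries against 18791 for Lgr5. Rnf43 overlaps 1110028F11Rik on its own strand, with 238 counts against 29107. These overlaps are of whole gene spans, and shared exons were not looked for. The labels do not say if counting used the strand. The part of overlapping genes in these counts was not tested.

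The upstream regions of Fzd7 and Fzd5 are shown because these receptor genes moved in opposite directions between progenitors and ISCs. Each is the 250 bases before the RefSeq start in GRCm38.p6, written 5′ to 3′ on the gene's strand, at chr1:59481897-59482146 (plus strand) for Fzd7 and chr1:64737751-64738000 (minus strand) for Fzd5. Capitals mark a match to CTTTGAT or CTTTGTT, core letters bound by TCF factors, searched on both strands.
Fzd7: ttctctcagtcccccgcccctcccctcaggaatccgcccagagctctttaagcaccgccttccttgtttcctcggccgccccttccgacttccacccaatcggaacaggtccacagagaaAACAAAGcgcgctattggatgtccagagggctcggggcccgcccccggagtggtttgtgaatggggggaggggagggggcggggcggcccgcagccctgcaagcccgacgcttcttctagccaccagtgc
Fzd5: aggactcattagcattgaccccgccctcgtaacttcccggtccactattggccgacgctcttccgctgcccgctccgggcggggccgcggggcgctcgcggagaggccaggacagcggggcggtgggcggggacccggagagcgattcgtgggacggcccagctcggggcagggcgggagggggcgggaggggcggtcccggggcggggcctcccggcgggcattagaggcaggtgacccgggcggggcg
The Fzd7 window held 1 match, CTTTGTT on the reverse strand, and the Fzd5 window held none of these letters. Either motif was found in 8.06% of the 32851 RefSeq windows of that length. The windows of Lgr4 and Rnf43 had no match, and those of Lgr5, Znrf3, Lrp5 and Lrp6 were not used here. GC content was 65.2% in the Fzd7 window and 76.4% in the Fzd5 window. A match is a run of letters and was not tested as a binding site.

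Totals per sample were 2823489 to 11821614 counts in Paneth cells, 2476086 to 7569896 in progenitors and 2176833 to 5586711 in ISCs. Transcripts of the mitochondrial genome took a median of 58.2% of Paneth counts, 4.02% of progenitor counts and 5.88% of ISC counts. The 69 technical libraries of Paneth cells were added up within each animal. The Paneth and ISC gates held their defining markers, and no marker list was set for progenitors. Paneth markers (13 genes such as Lyz1 and Mmp7) summed to a median of 236111 CPM in aged and 175929.6 CPM in young Paneth samples, against 1512 and 1099 CPM in aged and young progenitors and 414 and 419 CPM in aged and young ISCs. The 16 other stem cell markers (such as Olfm4 and Ascl2) had a median sum of 10976 CPM in aged and 10033 CPM in young ISCs. Their median sum was 3545 CPM in aged and 3199 CPM in young Paneth samples, and 1633 CPM in aged and 1723 CPM in young progenitors. Markers of other cell types were also present in Paneth samples. Median sums in aged and young Paneth samples were 7360.1 and 6306 CPM for 8 goblet markers, 2182 and 1359 CPM for 9 enteroendocrine markers, 1963 and 2047 CPM for 9 enterocyte markers and 541 and 672 CPM for 8 tuft markers. In aged and young ISCs these lists summed to 758 and 659.7 CPM, 19.3 and 7.59 CPM, 614 and 592 CPM, and 7.76 and 3.72 CPM. Their part in the Paneth differences was not tested. Levels are CPM, counts scaled by library size, with 1 set of TMM factors over all 67 samples. Since reads come from the 3′ ends of transcripts, levels are compared between samples of a gene and not between genes. In sorted bulk samples fewer cells of a type and less RNA per cell cannot be told apart.

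**Figure D1:**
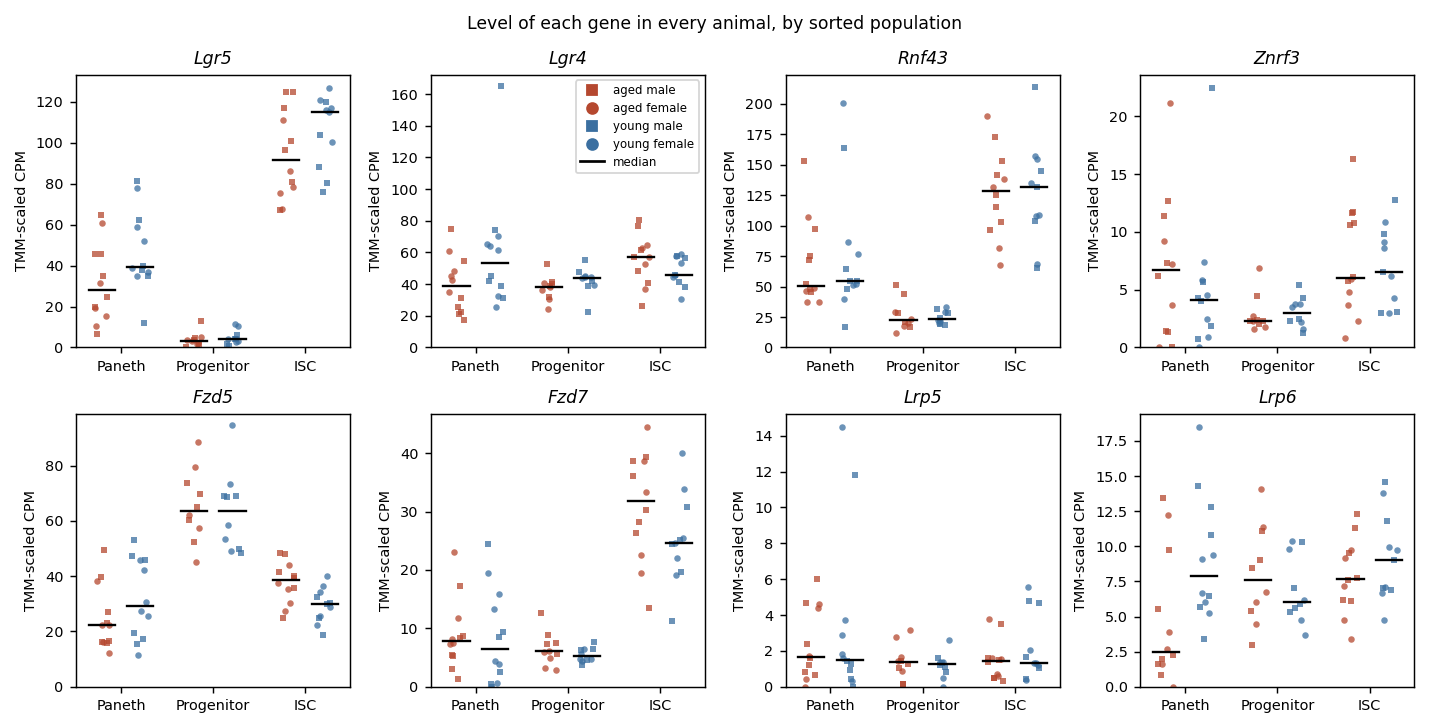
TMM-scaled CPM (y axes, from 0) of each of the 8 genes in every animal, by sorted population (x axes), with aged samples in red left of young samples in blue, squares for males, circles for females and black bars for medians. Lgr5, Rnf43 and Fzd7 are highest in ISCs, Fzd5 is highest in progenitors, and aged and young points overlap in every population.

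How does the receptor set differ between progenitors and the stem cells they come from? Progenitors had far less Lgr5. Rnf43 and Fzd7 fell to 0.204 and 0.201 of the ISC level in aged mice and to 0.193 and 0.217 in young mice, while Fzd5 rose 1.76-fold in aged and 2.12-fold in young progenitors. Of the 7 genes other than Lgr5, 1 was higher and 3 lower in aged progenitors (edgeR, adjusted p below 0.05). In young progenitors 1 was higher and 2 lower. Over all genes tested, 24.4% were called in the aged and 24.3% in the young comparison. The progenitor gate also held markers of maturing cells. The 8 goblet markers had a median sum of 19948 CPM in aged and 20618 CPM in young progenitors, against 758 CPM in aged and 659.7 CPM in young ISCs, and the 9 enterocyte markers 1797 and 1592 CPM against 614 and 592 CPM. Their part in these differences was not tested.

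Lgr5, the stem cell receptor for R-spondins, had a lowest, median and highest level of 0, 3.18 and 13 CPM in aged progenitors, against 67, 91.6 and 125 CPM in aged ISCs. In young mice it had 0.687, 4.09 and 11.6 CPM in progenitors against 76.0, 115 and 127 CPM in ISCs. No progenitor sample reached any ISC sample. Lgr5-driven GFP defined both gates, so this is a description, without a test: the fitted log2 difference was -4.58 in aged and -4.53 in young mice. The mean progenitor level was 4.10% of the ISC mean in aged and 4.59% in young mice. None of the 16 other stem cell markers fell to so low a share. They kept 6.44% (Gkn3) to 65.9% (Prom1) of the ISC mean in aged progenitors and 5.25% (Tnfrsf19) to 60.8% (Prom1) in young progenitors.

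Rnf43, the ligase that takes Frizzled receptors off the surface, had a lowest, median and highest level of 12, 22.3 and 51.3 CPM in aged progenitors, against 68.0, 128 and 190.1 CPM in aged ISCs. In young mice these were 18.7, 23.7 and 33.2 CPM in progenitors against 65.6, 132 and 214 CPM in ISCs. The populations did not overlap in either age class. The log2 difference was -2.29 ± 0.23 in aged mice (SE, edgeR adjusted p = 6.44e-11) and -2.37 ± 0.28 in young mice (adjusted p = 3.07e-08). Rnf43 was lower in progenitors in all 10 animals that gave both populations, by a median of 1.74 on the log2 scale. Its paralog Znrf3 was counted at a low level, with medians of 2.27 CPM in aged progenitors and 6.02 CPM in aged ISCs, and 2.98 CPM in young progenitors and 6.5 CPM in young ISCs. Its log2 difference was -1.08 ± 0.53 in aged mice (edgeR adjusted p = 0.143) and -1.23 ± 0.49 in young mice (adjusted p = 0.0652). The young difference passed with DESeq2, with limma-voom and in a fit without Paneth samples (adjusted p = 0.022, 0.028 and 0.00485), and also without Paneth young female replicate 3 or Paneth young male replicate 1 (adjusted p = 0.0481 and 0.0453). Over the other settings it ran from 0.00485 to 0.297. The aged one passed in the fit without Paneth samples (adjusted p = 0.0142, over the settings 0.0142 to 0.306).

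Fzd7, a Wnt receptor known for a role in intestinal stem cells, had a lowest, median and highest level of 2.82, 6.04 and 12.6 CPM in aged progenitors, against 13.4, 31.8 and 44.5 CPM in aged ISCs. Young mice had 3.71, 5.24 and 7.59 CPM in progenitors against 11.2, 24.6 and 40 CPM in ISCs. Every progenitor sample lay below every ISC sample of its age class. The log2 difference was -2.31 ± 0.32 in aged mice (edgeR adjusted p = 1.31e-07) and -2.20 ± 0.43 in young mice (adjusted p = 9.79e-05).

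Fzd5, a Wnt receptor with a known part in Paneth cell maturation, had a lowest, median and highest level of 45.0, 63.7 and 88.6 CPM in aged progenitors, against 25.0, 38.5 and 48.3 CPM in aged ISCs. Young mice had 48.3, 63.7 and 94.6 CPM in progenitors against 18.7, 30.1 and 40 CPM in ISCs. All young progenitor samples, and 9 of 10 aged ones, lay above every ISC sample of their age class. The log2 difference was 0.81 ± 0.20 in aged mice (edgeR adjusted p = 0.00155) and 1.08 ± 0.21 in young mice (adjusted p = 9.95e-05). With the animal as a block, over the 5 aged animals that gave both populations, the aged difference was 0.45 (adjusted p = 0.0599, over the settings 1.17e-05 to 0.0599). Fzd5 was higher in progenitors in all 10 aged and young animals that gave both, by 0.34 to 1.16 on the log2 scale.

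Lgr4, the broadly expressed R-spondin receptor, stayed much closer between the populations. Its median was 38.4 CPM in aged progenitors against 57.2 CPM in aged ISCs, and 44.2 CPM in young progenitors against 46.0 CPM in young ISCs. The aged difference just passed (log2 -0.58 ± 0.21, edgeR adjusted p = 0.0375) and the young one was -0.22 ± 0.22 (adjusted p = 0.525). The aged call was lost with the animal as a block (-0.49, adjusted p = 0.0663), and with the first technical Paneth libraries alone (adjusted p = 0.21, over the settings 0.00324 to 0.21). It was also lost without any 1 of 12 samples, which were ISC aged female replicates 1, 3 and 4, ISC aged male replicates 1, 2 and 4, progenitor aged female replicates 3 and 5, and progenitor aged male replicates 2 to 5, with the adjusted p reaching 0.0731. The co-receptors Lrp5 and Lrp6 had log2 differences of -0.23 ± 0.66 and 0.04 ± 0.46 in aged mice and -0.90 ± 0.70 and -0.46 ± 0.33 in young mice, and neither passed (lowest edgeR adjusted p = 0.351). Their intervals are wide, with Lrp5 between -2.26 and 0.46 in young mice.

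**Figure D2:**
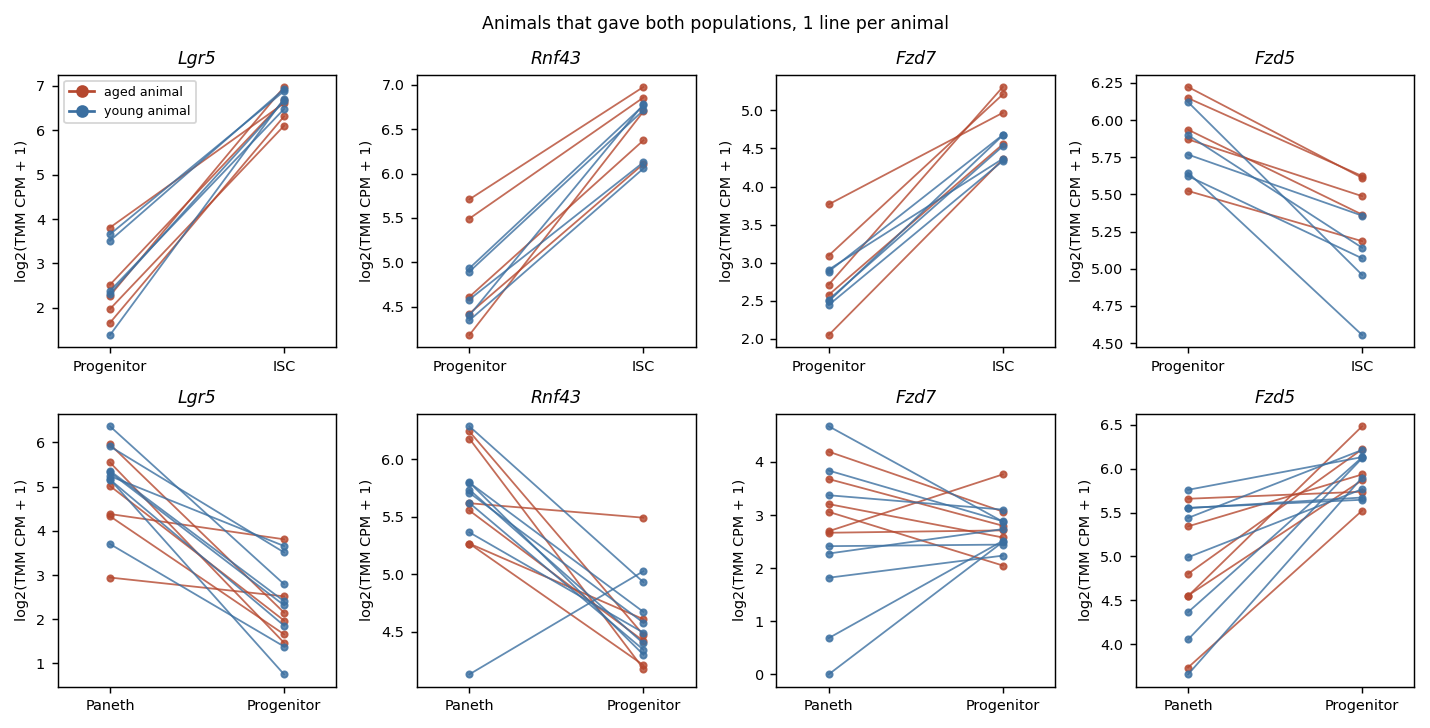
Levels as log2(TMM CPM + 1) (y axes) in the animals that gave both populations, 1 line per animal, with aged animals in red and young in blue. The top row sets progenitors left of ISCs in 10 animals and the bottom row Paneth cells left of progenitors in 14 animals. Lgr5, Rnf43 and Fzd7 are lower and Fzd5 is higher in the progenitors of all 10 animals of the top row, and Lgr5 is higher in the Paneth sample of all 14 animals of the bottom row.

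Which receptor genes set Paneth cells apart from ISCs? Fzd7 and Rnf43 were lower in the Paneth gate in both age classes, and Lgr5 was present there at 33.5% of the ISC mean in aged and 44.6% in young mice. The fitted Lgr5 log2 difference, a description, was -1.57 in aged and -1.11 in young mice. It moved to -3.19 and -2.97 without scaling factors, and to -2.37 in aged mice with the animal as a block. Of the 7 genes other than Lgr5, 0 were higher and 3 lower in aged Paneth cells, and 0 were higher and 2 lower in young ones. Of all genes, 28.6% were called in aged and 30.4% in young mice. As shares of all genes, 16.9% and 17.6% were higher and 11.7% and 12.8% lower. These comparisons lean on the scaling. With no scaling factors the median gene moved to -1.61 in aged and -1.86 in young mice, and 6 of the 7 genes were then called lower in each. Of all genes, 10077 of 12491 were then called lower in aged and 10647 of 12376 in young mice.

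Fzd7 in Paneth cells had a lowest, median and highest level of 1.33, 7.86 and 23.1 CPM in aged mice, and 0, 6.43 and 24.5 CPM in young mice. The ISC levels given above were higher in all 15 animals that gave both populations. The log2 difference from ISCs was -1.74 ± 0.29 in aged mice (edgeR adjusted p = 7.3e-06) and -1.47 ± 0.40 in young mice (adjusted p = 0.00372). It remained 1.66 and 1.37 below the median gene in aged and young mice without scaling factors.

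Rnf43 in Paneth cells had a lowest, median and highest level of 37.5, 50.2 and 153 CPM in aged mice and 16.5, 54.6 and 201 CPM in young mice. Most Paneth samples lay below all ISC samples of their age class, 7 of 12 in aged and 8 of 12 in young mice, and the others overlapped them. The log2 difference was -0.93 ± 0.21 in aged mice (edgeR adjusted p = 0.000513) and -0.72 ± 0.25 in young mice (adjusted p = 0.0284). The young call was lost with no filter on low counts (adjusted p = 0.0516), in a fit of these 2 populations alone (0.0766), with the animal as a block (-0.47, 0.134), with the first technical libraries (0.117), and without ISC young male replicate 1 (0.0701), over a range of 1.1e-08 to 0.134.

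Fzd5 was lower in aged Paneth cells, with a lowest, median and highest level of 12.3, 22.5 and 49.5 CPM against the 25.0, 38.5 and 48.3 CPM of aged ISCs (log2 -0.58 ± 0.19, edgeR adjusted p = 0.0192). That call was lost in a fit of these 2 populations alone (adjusted p = 0.0699), with the animal as a block (-0.64, 0.145) and with the first technical libraries (0.319), over a range of 5.65e-12 to 0.319. In young mice Fzd5 had 11.6, 29.2 and 53.2 CPM in Paneth cells, and its log2 difference was 0.16 ± 0.21 (adjusted p = 0.593). The age classes were not shown to differ in this: the difference of the Fzd5 differences was -0.74 ± 0.28 (edgeR adjusted p = 0.348), and that of Lgr4 was -0.74 ± 0.29 (adjusted p = 0.363). Of the 8 genes 0 were called in that comparison and 2 had an unadjusted p below 0.05, where 0.0376% of all genes were called and 8.91% had such a p.

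The other genes were not called between Paneth cells and ISCs. Lgr4 had log2 differences of -0.43 ± 0.20 in aged and 0.32 ± 0.21 in young mice (edgeR adjusted p = 0.101 and 0.256). Without Paneth aged male replicate 1 the aged one was -0.58 (adjusted p = 0.0152). Znrf3 had 0.22 ± 0.50 and -0.50 ± 0.47, Lrp5 0.63 ± 0.65 and 0.61 ± 0.66, and Lrp6 -0.73 ± 0.45 and -0.01 ± 0.32, each in aged and then in young mice. The aged Lrp6 difference passed with limma-voom (log2 -1.39, adjusted p = 0.0239), with the first technical libraries (-1.60, 0.0394) and without Paneth aged female replicate 5 (-1.25, 0.0374), over a range of 8.39e-06 to 0.352 across the settings.

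How do Paneth cells compare with progenitors? Lgr5 and Rnf43 were higher and Fzd5 was lower in Paneth cells of both age classes. Of the 7 genes other than Lgr5, 1 was higher and 1 lower in each class, where 24.1% of all genes were called in aged and 27.4% in young mice. The Rnf43 log2 difference was 1.36 ± 0.22 in aged mice (edgeR adjusted p = 7.03e-06) and 1.65 ± 0.27 in young mice (adjusted p = 1.66e-05), and 13 of 14 animals showed it. It depends on the scaling. Without scaling factors it was -0.08 and -0.04 in aged and young mice, while the median gene was at -1.45 and -1.71, so that Rnf43 lay 1.37 and 1.68 above the median gene. Fzd5 had log2 differences of -1.40 ± 0.20 in aged mice (adjusted p = 5.97e-07) and -0.92 ± 0.21 in young mice (adjusted p = 0.000661), lower in Paneth cells of all 14 animals with both populations. Lgr4, Fzd7, Znrf3, Lrp5 and Lrp6 were not called. Of these, Znrf3 in aged mice had 1.29 ± 0.53 (adjusted p = 0.0718) and passed with DESeq2 (1.37, adjusted p = 0.0226, over the settings 0.0226 to 0.946) and without any 1 of Paneth aged female replicate 3, Paneth aged male replicate 1 or 4, and progenitor aged female replicate 4 (lowest adjusted p = 0.0298). Lgr4 in young mice had 0.54 ± 0.21 (adjusted p = 0.0557) and passed with DESeq2 and with RLE scaling (0.58 in each, adjusted p = 0.0323 and 0.0379, over the settings 5.36e-06 to 0.691) and without any 1 of 7 samples, which were Paneth young female replicates 3 and 4, Paneth young male replicates 2, 3, 5 and 6 and progenitor young male replicate 3 (lowest adjusted p = 0.0243). Lrp6 in aged mice had -0.77 ± 0.47 (adjusted p = 0.247) and passed with limma-voom (-1.33, adjusted p = 0.0356), with the first technical libraries (-1.65, 0.049) and without Paneth aged female replicate 5 (adjusted p = 0.0423), over a range of 2.83e-05 to 0.612 across the settings. Lrp5 in young mice had 1.51 ± 0.70 (adjusted p = 0.104) and passed with the first technical libraries (2.04, adjusted p = 0.0471, over the settings 0.0471 to 0.915).

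**Figure D3:**
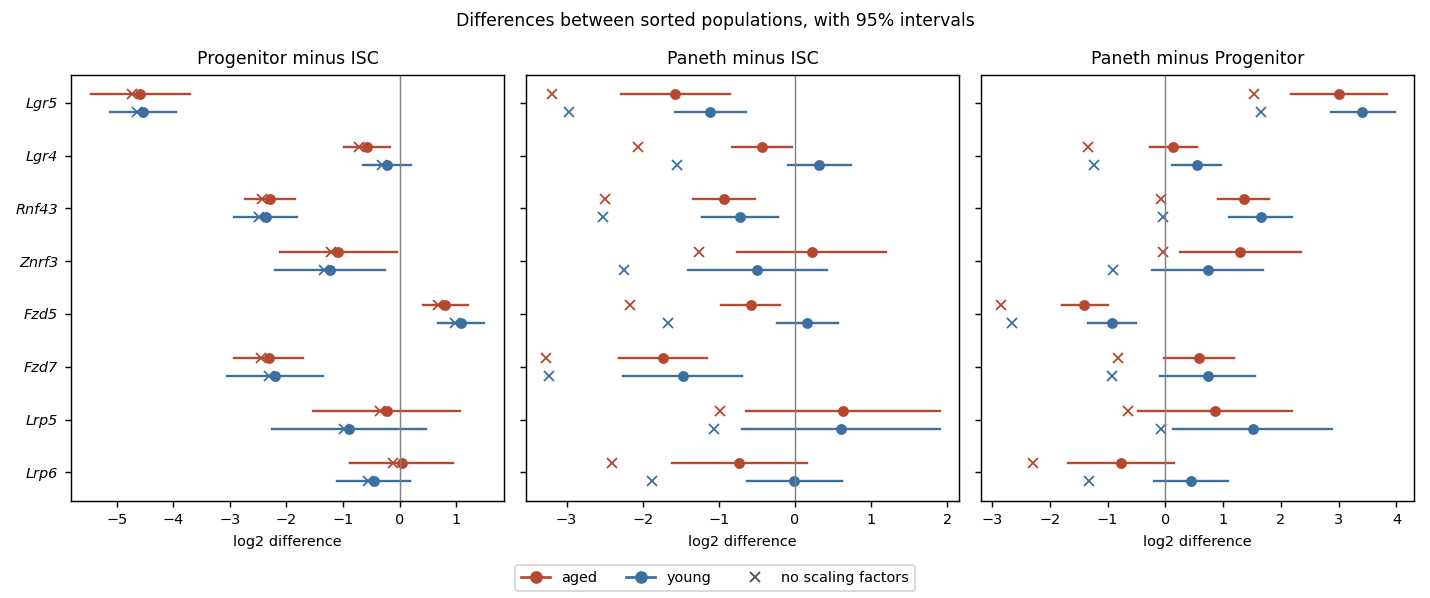
Log2 differences (x axes) of the 8 genes between sorted populations, aged in red above young in blue, as edgeR estimates with 95% intervals (dots and lines) and as estimates with no scaling factors (crosses). Progenitor minus ISC estimates barely move with the scaling, while in both Paneth comparisons the median gene without scaling lies between -1.86 and -1.45, and Rnf43 in Paneth minus progenitor falls to near 0.

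Lgr5 in the GFP-negative Paneth gate lay between the other gates. Its lowest, median and highest level was 6.69, 28.1 and 64.9 CPM in aged and 12, 39.4 and 81.3 CPM in young Paneth samples. All young Paneth samples, and 10 of 12 aged ones, lay above every progenitor sample of their age class, and Lgr5 was higher in the Paneth than in the progenitor sample of all 14 animals with both, by 0.43 to 4.41 on the log2 scale. Without scaling factors the fitted difference from progenitors was 1.53 in aged and 1.66 in young mice, still towards the Paneth gate. All 16 other stem cell markers had counts there too. Their sum was 2361 to 6041 CPM in aged and 2001 to 5617 CPM in young Paneth samples, against 8774 to 13566 CPM in aged and 7629 to 12951 CPM in young ISCs. Singly they lay at 20.1% (Slc14a1) to 106% (Sox9) of the ISC mean in aged and 29.2% (Olfm4) to 103% (Sox9) in young Paneth samples, with medians of 47.6% and 45.9%. Of those 16 markers, 3 in aged and 7 in young mice had a lower share than Lgr5. Over the 24 Paneth samples, with group means removed, Lgr5 and the summed other stem cell markers had a Pearson r of 0.46 (permutation p = 0.0239, adjusted over 3 populations 0.0716) and a Spearman rho of 0.482 (permutation p = 0.018, adjusted 0.0539). Without the 2 samples farthest from the median r was 0.648. Within age classes it was 0.334 in aged and 0.647 in young samples. In ISCs r was 0.361 (adjusted permutation p = 0.135) and in progenitors 0.233 (0.322). The part of stem cells in the Lgr5 counts of the Paneth gate was not tested. Single Paneth libraries were noisy for Lgr5, with 0 to 217 counts, and 0 in 4 of 69. On the log2(CPM + 1) scale of nuclear counts, the SD between single technical libraries of an animal was 1.58. Between animals, with libraries summed, it was 0.94. The 2 values are not like for like, and technical spread is part of the second.

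**Figure D4:**
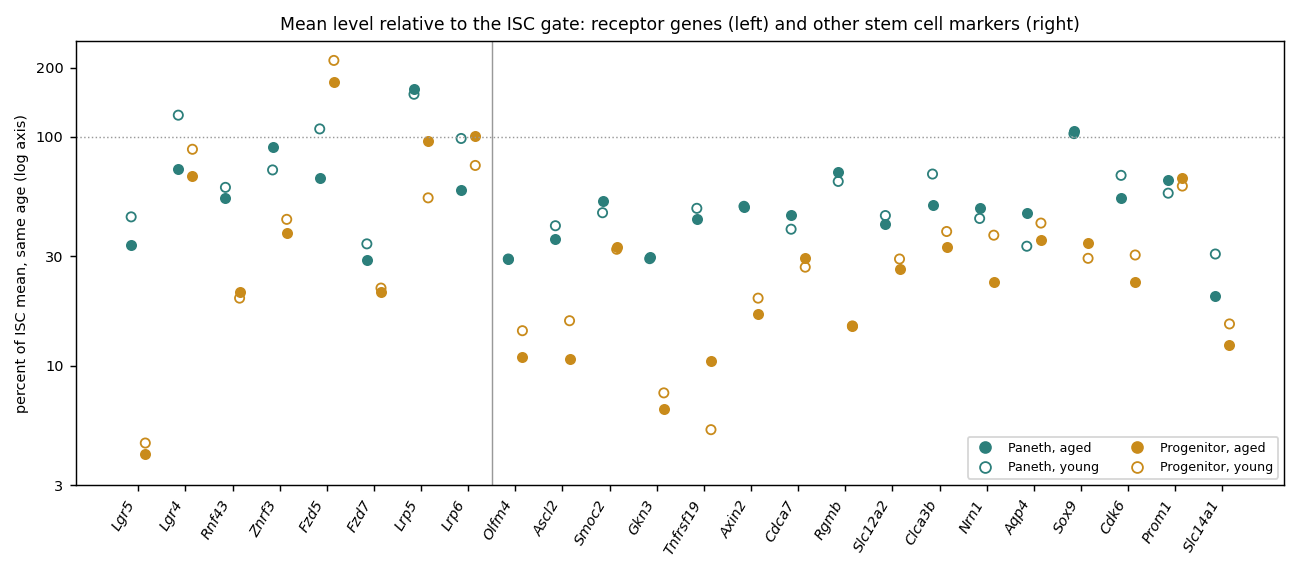
Mean level in the Paneth gate (teal) and the progenitor gate (ochre) as a percent of the ISC mean of the same age class (log y axis), filled for aged and open for young mice, for the 8 receptor genes on the left and 16 other stem cell markers on the right. Lgr5 in progenitors is the lowest share of all, at 4.10% and 4.59%, while in Paneth samples it sits among the other markers.

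Did age change the receptor genes? Of the 8 genes 0 passed in Paneth cells, progenitors or ISCs with edgeR, DESeq2 or limma-voom. At an unadjusted edgeR p below 0.05 there were 2 in Paneth cells, 0 in progenitors and 1 in ISCs. Few genes of any kind passed, 0.0686% in Paneth cells, 0.728% in progenitors and 0.351% in ISCs, and 6.83%, 9.06% and 8.9% of all genes had an unadjusted p below 0.05 there. The 95% intervals lay within 0.5 of 0 on the log2 scale for Lgr5, Lgr4 and Rnf43 in ISCs and for Lgr4, Rnf43 and Fzd5 in progenitors.

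In ISCs the aged and young Lgr5 levels given above overlapped, with 9 of 12 aged samples below the young median (log2 -0.20 ± 0.11, 95% interval -0.42 to 0.02, edgeR adjusted p = 0.646). The estimates of the sexes had opposite signs. The 5 aged females had 67.7, 75.3, 78.6, 86.4 and 111 CPM, against a lowest, median and highest level of 100.2, 117 and 127 CPM in 6 young females. Only the highest aged female reached the young female range. The 7 aged males had a lowest, median and highest level of 67, 101 and 125 CPM, against 76.0, 80.4, 88.3, 104 and 120.0 CPM in the 5 young males, which overlapped throughout. The log2 difference was -0.50 ± 0.16 in females (edgeR unadjusted p = 0.00356, adjusted p = 0.437) and 0.10 ± 0.15 in males (adjusted p = 0.905). The difference between the sexes was 0.60 ± 0.22 (unadjusted p = 0.0106, adjusted p = 0.603), in a comparison where 0 of 11958 genes passed and 838 had an unadjusted p below 0.05. Znrf3 in ISCs showed the same order, with 0.810, 2.30, 3.67, 4.77 and 5.91 CPM in aged females against a lowest, median and highest of 3.02, 7.39 and 10.9 CPM in young females, and a difference between the sexes of 1.57 ± 0.65 (adjusted p = 0.674). The aged ISC males were 24 to 27 months old and the aged ISC females 23 to 24 months. Among ISC samples, only the males of 26 and 27 months had names ending in _2. For both genes, sex, months of age and this name ending cannot be fully told apart.

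The Frizzled receptors of ISCs lay somewhat above their young levels without passing. Fzd5 had a median of 38.5 CPM in aged and 30.1 CPM in young ISCs, and 10 of 12 aged samples lay above the young median (log2 0.32 ± 0.15, unadjusted p = 0.0356, edgeR adjusted p = 0.517). Fzd7 had a median of 31.8 CPM in aged and 24.6 CPM in young ISCs (0.30 ± 0.19, adjusted p = 0.706). Rnf43 was at 128 CPM in aged and 132 CPM in young ISCs (-0.04 ± 0.18, adjusted p = 0.981), and Lgr4 at 57.2 CPM in aged and 46.0 CPM in young ISCs (0.17 ± 0.15, adjusted p = 0.83). Lrp5 and Lrp6 had -0.59 ± 0.58 and -0.29 ± 0.26 (adjusted p = 0.856 and 0.837).

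In progenitors all 8 genes had estimates between -0.29 (Lgr5) and 0.19 (Lrp6), and the lowest edgeR adjusted p was 0.734, for Lgr4. In Paneth cells 6 of the 8 were negative, with a median of -0.47 against 0.01 over all genes. Lgr5 was at a median of 28.1 CPM in aged and 39.4 CPM in young Paneth samples (log2 -0.64 ± 0.31, edgeR adjusted p = 0.722), and 8 of 12 aged samples lay below the young median. Lgr4 was at a median of 39.1 CPM in aged and 53.6 CPM in young Paneth samples (-0.57 ± 0.27, adjusted p = 0.709), where Paneth young male replicate 1 stood apart at 165 CPM. Lrp6 had medians of 2.46 CPM in aged and 7.88 CPM in young Paneth samples, and 7 of 12 aged samples lay below all young ones (-1.0 ± 0.59, adjusted p = 0.80). The mitochondrial share moved with age in the same samples, at a median of 55.0% in aged and 61.4% in young Paneth cells. With mitochondrial transcripts left out the Paneth age differences were -0.63 for Lgr5, -0.57 for Lgr4 and -0.99 for Lrp6, and 0 of the 8 genes passed. Age effects differed between populations for 0 of the 8 genes in any pair (edgeR, with 0.00753% of all genes called for progenitor minus ISC and 0% for Paneth minus progenitor). With unadjusted p below 0.05 there were 1 for Paneth minus progenitor, Lrp6, and 0 for progenitor minus ISC. Of all genes, 7.27% and 2.19% had such a p in these 2 comparisons. Males and females did not pass for any of the 8 genes in Paneth cells, progenitors or ISCs, where 0.0257%, 0.135% and 0.0836% of genes were called. At an unadjusted edgeR p below 0.05, 1 did, Znrf3 in ISCs (0.78 ± 0.33, males minus females, adjusted p = 0.576). Such a p was found for 4.63%, 7.92% and 7.33% of all genes in Paneth cells, progenitors and ISCs.

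**Figure D5:**
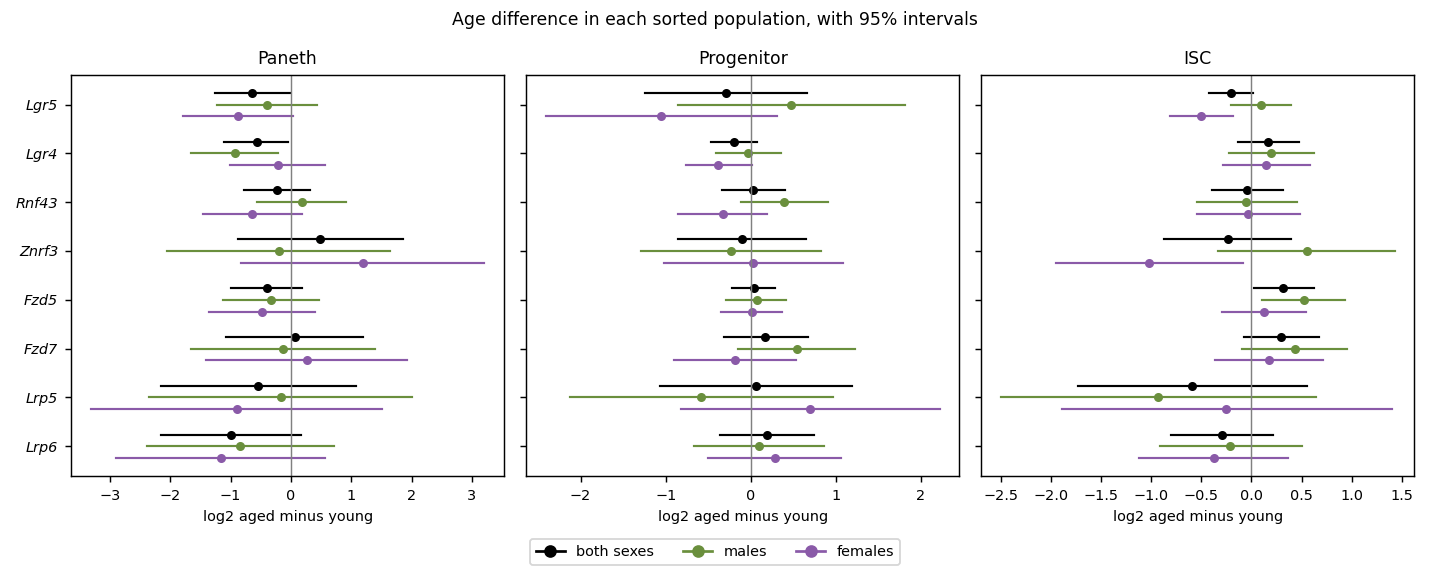
Log2 difference, aged minus young (x axes), of the 8 genes in each sorted population, as edgeR estimates with 95% intervals for both sexes together (black), males (green) and females (purple). In ISCs Lgr5 lies at -0.50 in females and 0.10 in males, and the intervals of the low-count genes Lrp5 and Znrf3 in Paneth cells are the widest.

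The rest of the pathway was read from 96 further Wnt genes grouped by role, of which 95 were found in the table and 54 passed the filter over all samples. The R-spondin genes and Lgr6 did not pass it in any comparison. Between progenitors and ISCs the pathway moved mostly downward. In aged mice 3 of 51 tested genes were higher and 13 lower in progenitors, with a median of -0.32 against -0.03 over all genes, of which 14% were higher and 10.5% lower. In young mice 0 of 48 were higher and 15 lower, with a median of -0.61 against -0.06, where 13.1% of all genes were higher and 11.2% lower. All 3 measured secreted inhibitors fell in young progenitors, and 2 of 4 fell in aged ones.

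Axin2, the feedback scaffold that is a standard readout of Wnt signalling, had a lowest, median and highest level of 6.53, 12.5 and 35.1 CPM in aged progenitors against 53.4, 87.9 and 119 CPM in aged ISCs (log2 -2.60 ± 0.26, edgeR adjusted p = 7.74e-11). It was also lower in young progenitors (-2.37 ± 0.23, adjusted p = 2.99e-11), and no progenitor sample reached an ISC sample of its age class. Igfbp4, a secreted IGF-binding protein also described as a Wnt inhibitor, fell by 2.54 in aged and 2.63 in young progenitors on the log2 scale. Sfrp5, a secreted Frizzled decoy, fell by 3.57 and 3.12. Nkd1, an inhibitor that binds Dishevelled, fell by 4.36 in aged progenitors, and Smo, the Hedgehog transducer listed among the membrane regulators, fell by 2.26 in young ones (highest edgeR adjusted p of these 1.52e-06). Dvl2, which relays the Frizzled signal, and the co-repressor Tle4 rose in aged progenitors (0.68 ± 0.19 and 0.73 ± 0.24, adjusted p = 0.00556 and 0.0209).

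In Paneth cells the ligand Wnt3 stood out, while the other measured ligand and secretion genes varied. Against ISCs without scaling factors, Wls lay at -0.55 in aged and -0.84 in young mice relative to the median gene. Wnt5b lay at -0.41 and -0.60, and Porcn at 1.37 and 0.34, in the same order. Wnt6 lay at -0.19 in aged mice. Wnt3, the ligand Paneth cells are known for, had a lowest, median and highest level of 39.9, 122 and 169 CPM in aged and 29.0, 86.2 and 119 CPM in young Paneth samples. Aged ISCs had 0, 1.18 and 6.31 CPM and young ISCs 0.203, 2.4 and 12.4 CPM. All Paneth samples lay above all ISC samples (log2 6.00 ± 0.63 in aged and 4.47 ± 0.40 in young mice, edgeR adjusted p = 9.15e-09 and 5.91e-12). Fzd9, a Frizzled receptor, was at a median of 21.7 CPM in aged and 9.49 CPM in young Paneth samples and at 0 CPM in aged and young ISCs, with log2 differences of 6.56 ± 0.75 and 5.09 ± 0.77. With ISC medians of 0 the size of these differences is not exact. Notum, a secreted enzyme that inactivates Wnt ligands, had 342 counts over the aged Paneth samples and 0 over the aged ISCs, where a count of 0 allows up to 3 counts for the group, so that it was at least 63.5-fold higher per total count.

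Of 51 tested pathway genes, 8 were higher and 8 lower in aged Paneth cells than in aged ISCs (median -0.28 against -0.01 over all genes, and -0.28 with Notum at its bound). In young mice 6 of 48 were higher and 10 lower (median -0.28 against -0.00). Igfbp4, Sfrp5 and Axin2 were lower in aged Paneth cells (log2 -1.24 ± 0.20, -1.87 ± 0.40 and -1.05 ± 0.24) and in young ones (-1.48 ± 0.17, -1.69 ± 0.28 and -1.0 ± 0.21). Fzd1 was lower in aged (-2.29 ± 0.61) and the polarity gene Vangl1 in young Paneth cells (-1.53 ± 0.37), and Nkd1 was higher in young ones (2.16 ± 0.56). Dvl2 was higher in both (1.15 ± 0.18 and 1.21 ± 0.18), and without scaling factors it was -0.41 and -0.66 in aged and young mice. With no scaling factors 4 were higher and 37 lower in aged mice, and 2 higher and 42 lower in young mice. Over all genes 508 were then higher and 10077 lower in aged mice, and 397 higher and 10647 lower in young mice. With the animal as a block, on the 7 young animals that gave both populations, the young comparison had 7 called pathway genes. Over all genes 1609 were then called, against 3763 in the main fit.

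Against progenitors, 15 pathway genes were higher and 3 lower in aged Paneth cells, where 13.3% of all genes were higher and 10.7% lower (median 0.47 against 0.02). In young mice 17 were higher and 1 lower, where 16% were higher and 11.5% lower (median 0.35 against 0.05). All 3 tested secreted inhibitors were higher in young Paneth cells and 3 of 4 in aged ones. This depends on the scaling. Without scaling factors Igfbp4, Sfrp5 and Apcdd1 were at -0.59, -0.36 and 1.17 in young mice. In aged mice they were at -0.12, 0.23 and -0.83, and Notum was at 5.47. Nkd1, Fzd9 and Wnt3 had the smallest adjusted p of the pathway genes named here in both age classes. They were higher in aged (log2 5.70 ± 0.65, 6.56 ± 0.79 and 6.40 ± 0.67) and in young Paneth cells (6.21 ± 0.77, 7.42 ± 0.96 and 4.98 ± 0.43). Without scaling factors they stayed between 3.20 and 5.88. Igfbp4 in aged mice (1.3 ± 0.21) and the Dishevelled gene Dvl1 in young mice (1.06 ± 0.16) were higher, but were -0.12 and -0.70 without scaling factors. Tle4 was lower in both (-1.03 ± 0.25 and -0.86 ± 0.28) and Fzd1 in aged mice (-1.62 ± 0.62). The split of calls turned round without scaling factors, to 5 higher and 25 lower in aged and 3 higher and 30 lower in young mice. Over all genes the split was then 325 higher and 9420 lower in aged and 250 higher and 10194 lower in young mice. With the animal as a block, on the 6 aged and 8 young animals that gave both populations, 6 pathway genes were called in aged and 9 in young mice.

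With age, 0 pathway genes passed in Paneth cells (48 tested), progenitors (43) or ISCs (48) with edgeR, DESeq2 or limma-voom. At an unadjusted edgeR p below 0.05 there were 4, 4 and 8, where 6.83%, 9.06% and 8.9% of all genes had such a p. Named after its values were seen, Notum had a lowest, median and highest level of 0, 2.95 and 24.8 CPM in aged Paneth samples, against 0, 0.152 and 3.71 CPM in young ones (log2 2.49 ± 0.86, unadjusted p = 0.00624, edgeR adjusted p = 0.422). The groups overlapped, and no count was found in 1 of 12 aged and 6 of 12 young samples.

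Genes whose levels ran most like a receptor gene over the 67 samples are given as a description, since the samples share their population and scaling. Lgr5 ran most like Gkn3, Rgmb and Olfm4 (Pearson r = 0.888, 0.880 and 0.867). Rnf43 ran most like Axin2, Psrc1 and Stra6l (0.890, 0.877 and 0.862), and Fzd7 most like Smoc2, Olfm4 and Rgcc (0.822, 0.781 and 0.776). Fzd5 ran most like Tspan8, Ugt2b34 and Atp2a2 (0.818, 0.790 and 0.765). For the other 4 genes the highest values were 0.571 with Pabpc4 for Lgr4, 0.570 with Slc22a5 for Znrf3, 0.508 with Hps1 for Lrp5 and 0.597 with Zmym2 for Lrp6. Between receptor genes, Lgr5 had r = 0.80 with Rnf43, 0.59 with Fzd7 and -0.55 with Fzd5. Within the 23 ISC samples, after group means were removed, Lgr5 had r = 0.53 with Fzd7 and 0.32 with Rnf43, and Rnf43 had 0.61 with Znrf3. The genes most like Lgr5 within ISCs were Pan3, Prr15 and Gaa (r = 0.761, 0.756 and 0.746).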

How the data were processed

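Gene counts of 112 libraries made with the SC3-seq 3′ method from 1 ng of RNA were deposited by the authors as whole-number counts per gene, not normalised. The submitters' processing notes name cutadapt 3.0, STAR 2.7.9a, HTSeq 0.13.5, DESeq2 1.30.1 and mm10. Neither annotation release nor strand setting is stated there. The deposited CPM table was not used. Paneth libraries were summed per animal, leaving 67 samples under 36 animal names, and groups came from the titles and descriptions. One aged animal is labelled 24 months in its ISC sample and 23 months in its other samples. A further name that may be a repeat of an aged male was kept apart.

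Genes were kept by filterByExpr (minimum count 10), given TMM factors and tested by the edgeR 4.0.16 quasi-likelihood F test (R 4.3.3) at a Benjamini-Hochberg adjusted p below 0.05 over all genes tested. Age effects were fitted within a population with 4 groups of age and sex. Population differences were fitted within an age class with 6 groups, as the mean over the sexes. Age effects were compared between populations over all 67 samples. The biological coefficient of variation was 0.706 in Paneth cells, 0.333 in progenitors and 0.433 in ISCs. P-values measure the spread between samples, 1 per animal in each population, which includes technical spread. Fits across populations treated samples of the same animal as independent, except where the animal was a block. DESeq2 1.42.0 and limma 3.58.1 were alternatives, with other scaling, filters, blocks and samples. The age fit in ISCs was tested on simulated data, and the other fits were not. Correlations were taken on log2(CPM + 1) with 100000 permutations.

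The 8 genes, the Wnt pathway list, the marker lists and the tests were chosen with earlier results of these data known. Named pathway genes are up to 4 called genes in each direction with the smallest p, at a mean of at least 1 CPM. Populations sorted from 1 animal are paired by origin, and their residuals correlated at a median r of 0.0859 (progenitors and ISCs, 10 animals), 0.0642 (Paneth cells and ISCs, 15) and 0.0623 (Paneth cells and progenitors, 14). The animal was therefore tried as a block. These fits held only animals with both populations. Aged and young animals numbered 5 and 5 for progenitors and ISCs, and 8 and 7 for Paneth cells and ISCs. For Paneth cells and progenitors they numbered 6 and 8. In calls lost there, the pairing and the smaller number of samples cannot be told apart. Sequences are from RefSeq, GRCm38.p6. Depth limits the low genes, and intervals cover the spread between samples.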

Additional observations from a re-analysis of the deposited data

Results flagged for a closer look

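In groups of 4 to 10 animals, 14 of 96 tested groups of values had 1 sample far from the others. The rule flags about 1 in 20 groups if values are normally distributed. It was applied to CPM without a log scale, and the same animals recur over the genes. An excess over that rate therefore cannot be read from these flags. Most flags came from the Paneth gate. Paneth young male replicate 1 stood far above the other 5 of its group for Lgr4 (165 CPM, the next 74.1), Rnf43 (164 CPM, the next 64.8) and Znrf3 (22.5 CPM, the next 5.67). Paneth aged female replicate 2 was high for Rnf43 (107 CPM, the next 48.5) and Fzd7 (23.1 CPM, the next 11.8). Paneth young female replicate 1 was high for Rnf43 (201 CPM), replicate 4 of that group for Lrp5 (14.5 CPM, 39 counts) and replicate 6 for Lrp6 (18.5 CPM). Paneth young male replicate 6 was high for Lrp5 (11.8 CPM, 53 counts).

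Among progenitors, aged female replicate 4 and aged male replicate 4 were high for Znrf3 (6.89 and 4.42 CPM), and young female replicate 5 was low for Lgr4 (39.5 CPM, the next 43.7). Among ISCs, aged male replicate 6 and young female replicate 1 were high for Lrp5 (3.52 and 5.54 CPM). Their causes were not tested.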

How the results depend on the processing

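Settings moved the Paneth comparisons most. Without scaling factors, of the 7 genes other than Lgr5, 6 were called in aged and 6 in young Paneth cells against ISCs, and 4 in aged and 4 in young ones against progenitors. Of all genes, 10585 of 12491 (aged) and 11044 of 12376 (young) were called against ISCs. Against progenitors these were 9745 of 12491 and 10444 of 12376. Pathway genes called were then 41 and 44 (aged and young, against ISCs) and 30 and 33 (against progenitors). Reversed log2 values without scaling factors were, against ISCs, Znrf3 -1.26 (aged), Fzd5 -1.67 and Lgr4 -1.55 (young), and, against progenitors, Fzd7 -0.83, Lgr4 -1.34 and Rnf43 -0.076 (aged) and Fzd7 -0.92, Lgr4 -1.23, Lrp6 -1.32 and Rnf43 -0.036 (young). With the animal as a replicate block, called genes other than Lgr5 were 1 for young Paneth against ISC and 2 for aged progenitor against ISC, and pathway genes were 7 (young Paneth against ISC) and 6 and 9 (aged and young Paneth against progenitor). Of the 7 genes, 1 was called in young Paneth against ISC with no filter, with 2 populations only and with technical library 1, and 1 to 2 when 1 replicate was left out. Technical library 1 gave 10 pathway genes for aged Paneth against ISC and 10 for young Paneth against progenitor, and fitting age in Paneth cells on all samples gave 1. Samples that share a title's replicate number had residuals with median r of 0.006 (Paneth), -0.00101 (progenitor) and 0.0234 (ISC), so the numbers do not pair them, and a replicate block on them called 0 of the 8 genes with age.

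Counts over all genes that moved by over 1.5 times were, for age in ISCs, 106 with DESeq2 against 42. For age in progenitors they were 142 with DESeq2, 34 with the ending of the sample name as a term, 34 without animals of 26 and 27 months and 9 in a fit on all samples, against 86. For age in Paneth cells they were 30 with DESeq2, 14 with limma-voom, 346 in a fit on all samples, 22 without scaling, 3 with technical library 1 and 2 without animals of 26 and 27 months, against 8, and 3 to 13 when 1 replicate was left out. Paneth comparisons called 10585 (aged) and 11044 (young) genes against ISCs and 9745 and 10444 against progenitors without scaling. With the block they called 2277 (aged) and 1609 (young) against ISCs and 1362 in aged against progenitors. The main fits called 3572, 3763 and 3007 in the same order. Progenitor against ISC gave 1699 (aged) and 1720 (young) with technical library 1 and 4732 (young) with 2 populations only. For the difference of age effects, technical library 1 gave 69 genes for Paneth against ISC, 26 for Paneth against progenitor and 0 for progenitor against ISC, against 5, 0 and 1, and no scaling gave 3 for Paneth against ISC. Leaving out 1 replicate gave 0 to 10, 0 and 0 to 1. Counts of the 8 genes were 0 in each. The causes were not tested beyond these settings.

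Of calls over all genes, the percent that were higher also moved without scaling factors. It was 4.8% and 3.59% for aged and young Paneth against ISC (58.9% and 57.9% with TMM), 3.34% and 2.39% for Paneth against progenitor (55.4% and 58.1%), 42.6% and 44% for progenitor against ISC (57.1% and 53.9%) and 53.1% for age in progenitors (64%). Of 5161 values of single receptor genes over all settings, 5090 were counted as unchanged, and 174 of the uncalled ones changed sign. Apart from Lgr5 between populations, unchanged values kept their direction and their side of the threshold or were uncalled in both. Lgr5 between populations was counted by its estimate without the threshold, so a lost call can be among its unchanged values. Most values, 4288, came from fits that left a sample out, and 4259 of these were unchanged. Without scaling factors 101 of 120 were unchanged.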
